A study of Homo sapiens with 4 samples.

Results

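The genes described here carry the cyclic AMP (cAMP) signal inside cells of the human leukemia line MV4-11, derived from acute myeloid leukemia, after knockdown of the transcription factor IRF1. They are 10 genes of the 23622 in the table of RNA sequencing values: GNAS, GNAI2, ADCY7, PRKACA, PRKACB, PRKAR1A, PRKAR2A, CREB1, PDE4B and PDE4D. They were chosen by name from earlier results of the same 4 libraries, among them the lower level of GNAS. Their differences between the groups are therefore given as a description and support nothing by themselves. The control group (sh-NC) is MV4-11 with a wild-type genotype, which the labels give as not treated and the study's text as carrying a control hairpin. The knockdown group (sh-IRF1) carries a short hairpin RNA against IRF1, delivered by lentivirus and followed by puromycin selection. The study's text describes infection of sh-NC cells too. If the control was instead untreated, as labelled, effects of infection and selection cannot be told apart from those of the knockdown. Each group holds 2 libraries of total RNA. The study designed 2 hairpins, which were not assigned to single libraries in the sources used here. Nothing says whether the libraries of a group came from separate cultures. The p-values therefore measure only the spread between these libraries, which the test largely pools over genes.

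In this pathway a hormone, prostaglandin or nucleoside binds a receptor that activates the stimulatory G protein. Its alpha subunit, encoded by GNAS, switches on adenylyl cyclases such as ADCY7, which make cAMP from ATP, while inhibitory alpha subunits such as GNAI2 restrain them. cAMP binds the regulatory subunits of protein kinase A (PKA), here PRKAR1A and PRKAR2A, and thereby releases the catalytic subunits PRKACA and PRKACB. The freed kinase phosphorylates CREB1, which binds cAMP response elements in promoters, and phosphodiesterases such as PDE4B and PDE4D break cAMP down again. In myeloid cells a rise of cAMP is known to dampen inflammatory responses.

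The hairpins' 21-base targets are shown because any match to a transcript of these genes would bear on its level.
sh-IRF1#1: gcaccagtgatctgtacaact
sh-IRF1#2: ggaaattacctgaggacatca
The first occurs whole in 12 of 50 annotated IRF1 transcripts and the second in 13. Neither occurs whole in any annotated transcript of the 10 genes, and the longest run shared with one of them was between 8 and 10 bases. Shorter matches of the small RNA to these transcripts were not tested.

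Promoter windows of 300 bases, from 250 before a transcript start, came from RefSeq on GRCh38.p14. All 10 genes matched, with 38 windows in all, since several genes have more than 1 start. They were searched on both strands for a full cAMP response element (TGACGTCA), an IRF core (AANNGAAA), a GAS element (TTCNNNGAA) and an E-box (CACGTG). Below is 1 window with a match for each of the 3 lowered members, with the matched letters in capitals, and GNAS and PRKAR1A have further windows with a match that are not printed. The first is an upstream start of GNAS at chr20:58852731-58853030 on the plus strand, with an IRF core 24 bases before the start, and this start lies 38440 bases from that of the canonical transcript. The canonical start of GNAS was not searched here, since the nearest of its 6 windows has its start 2241 bases away. The second is the single window of ADCY7, at chr16:50266301-50266600 on the plus strand, with a GAS element 194 bases before the start. The third is the window at the canonical start of PRKAR1A, at chr17:68512180-68512479 on the plus strand, with a cAMP response element 49 bases before the start.
GNAS: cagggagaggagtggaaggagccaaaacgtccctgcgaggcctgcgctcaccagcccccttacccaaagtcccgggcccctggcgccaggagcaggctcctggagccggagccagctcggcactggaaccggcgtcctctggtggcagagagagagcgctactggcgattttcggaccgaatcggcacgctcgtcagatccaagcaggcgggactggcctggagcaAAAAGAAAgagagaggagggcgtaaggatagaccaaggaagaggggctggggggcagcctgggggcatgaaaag
ADCY7: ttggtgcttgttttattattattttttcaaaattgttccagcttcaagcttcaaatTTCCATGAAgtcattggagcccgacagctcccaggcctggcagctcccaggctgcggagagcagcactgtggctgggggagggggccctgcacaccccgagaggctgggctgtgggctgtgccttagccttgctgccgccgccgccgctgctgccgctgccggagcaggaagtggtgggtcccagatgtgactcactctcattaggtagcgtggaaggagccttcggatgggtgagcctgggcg
PRKAR1A: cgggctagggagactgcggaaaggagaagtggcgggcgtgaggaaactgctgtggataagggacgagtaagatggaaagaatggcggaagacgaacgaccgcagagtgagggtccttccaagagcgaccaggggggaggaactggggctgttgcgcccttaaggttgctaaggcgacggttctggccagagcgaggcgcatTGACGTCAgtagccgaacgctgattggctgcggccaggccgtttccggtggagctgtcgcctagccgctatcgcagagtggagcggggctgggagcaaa
The full cAMP response element stood in 2 of the 38 windows, both of PRKAR1A and both covering the same site, against 1.85% of all 35116 windows. The IRF core stood in 10 of the 38, against 22.8% of all windows. These windows belong to 6 of the genes: GNAS, PRKACA, PRKACB, PRKAR1A, PDE4B and PDE4D. Among them PRKACA and PRKACB were higher in sh-IRF1. In PRKACB a match lies in the window at the canonical start, 248 bases before it. The GAS element stood in 4 of the 38 against 7.66% of all, and the E-box in 3 of the 38 against 7.26%. The E-box windows belong to GNAS, GNAI2 and PRKAR1A. A match describes letters in a window and is not a measurement of binding.

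The 4 libraries held between 17635908 and 18695337 reads, and mitochondrial genes took 3.92% to 4.51% of them. Values are normalized counts, the reads of a gene divided by 1 size factor per library. Changes are differences of log2(normalized count + 1), knockdown minus control, on which low genes change by less than their true fold, and limma tested the 14120 genes that reached 10 in at least 2 libraries, with calls at a Benjamini-Hochberg adjusted p under 0.05. IRF1, the targeted gene, had 785 and 738 normalized counts in sh-NC and 430 and 432 in sh-IRF1 (log2 fold change -0.82, SE 0.0904, adjusted p = 1.69e-10 from limma), and genes on the other strand share 22.9% of its exonic bases. The 10 markers of myeloid leukemia cells summed to 32308 to 32394 in sh-NC and 28398 to 28572 in sh-IRF1. Of these markers 3 were higher and 4 lower, beside 20.3% higher and 21.9% lower of all genes tested. FLT3 had the highest mean level of the 10 and SPI1 the next, and these genes made up most of the sum. The lower sum is therefore not a shift shared by all 10. The epithelial keratins KRT8 and KRT18 summed to 254 to 343 in sh-NC and 362 to 392 in sh-IRF1, and the T cell markers CD4 and CD8A to 11667 to 11873 and 11800 to 11956. Of the last pair CD8A averaged 2.05, whereas CD4 is also expressed by myeloid cells and made up the rest. The fibroblast marker COL1A1 did not exceed 4.97 in any library, and the erythroid markers HBB and ALAS2 were not analysed here. The part of these shifts in the results below was not tested, and in bulk RNA fewer cells of a type and less RNA per cell cannot be told apart.

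Of the 10 genes, 9 had enough reads for the fit. GNAS, ADCY7 and PRKAR1A were lower in sh-IRF1, GNAI2, PRKACA and PRKACB were higher, and PRKAR2A, CREB1 and PDE4D did not pass the threshold. Thus 6 of 9 were called, beside 42.2% of all genes tested, with 3 higher beside 20.3% and 3 lower beside 21.9%. Since these genes were selected on this contrast, nothing is read from the comparison with the background. With an absolute log2 fold change beyond 0.5 as well, GNAS alone of the 9 remained, beside 15.8% of all genes. The libraries of the groups did not overlap in normalized counts for 8 of the 9, all but CREB1, beside 69.2% of all genes. The 9 had a median log2 fold change of -0.11, beside -0.0019 over all genes tested.

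**Figure D1:**
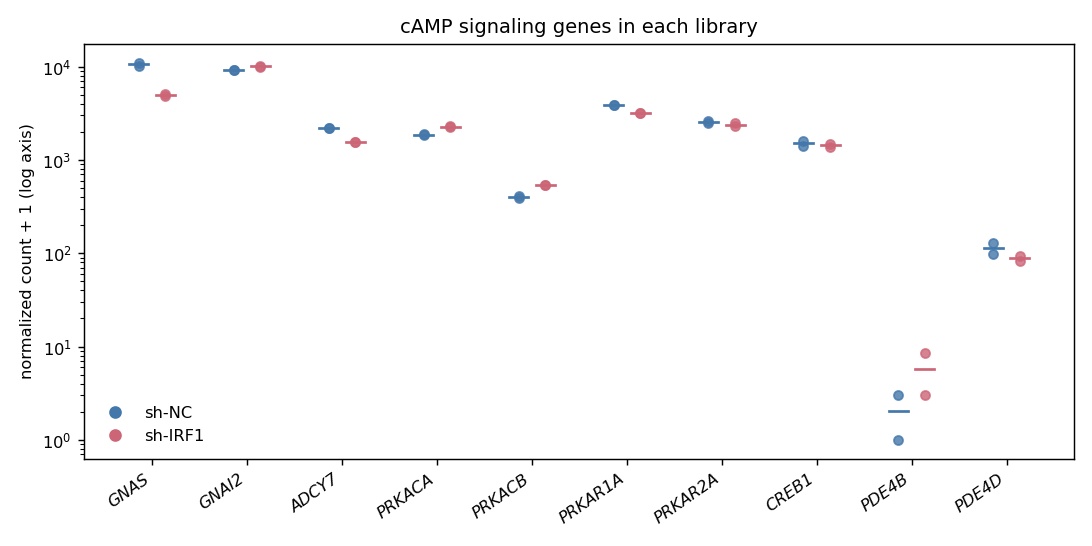
Normalized count + 1 on a log axis for the 10 genes in each of the 4 libraries, with sh-NC in blue, sh-IRF1 in red and a bar at each group's mean. GNAS and GNAI2 stand side by side in sh-NC and apart in sh-IRF1, and PDE4B lies near 0 in every library.

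GNAS (ENSG00000087460) lies on chr20:58839718-58911192 of GRCh38, on the plus strand. Control libraries had 10219 and 10981 normalized counts and knockdown libraries 5028 and 4813. Both sh-IRF1 libraries lay below both sh-NC libraries, and the gap between the groups was several times the spread within either. The mean went from 10600 ± 539 to 4921 ± 152 (SD, n = 2 each), or 46.4% of the control. The log2 fold change was -1.11 (SE 0.035, 95% interval -1.18 to -1.04).

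GNAS is an imprinted locus with several starts, which give the widely used stimulatory alpha subunit and longer or unrelated products. The table holds 1 value for the whole locus, so its products could not be told apart. Whether reads were counted by strand is not given in the sources used here. Of the exonic bases of GNAS 5.23% are shared with antisense genes, among them GNAS-AS1, which was not analysed here.

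GNAI2 (ENSG00000114353), on chr3:50226292-50259362, encodes an inhibitory alpha subunit that is abundant in blood cells. It had 9152 and 9233 normalized counts in sh-NC and 9885 and 10205 in sh-IRF1. Both knockdown libraries were above both controls, by a margin small beside that of GNAS: the control mean was 9192 ± 57 and the knockdown mean 10045 ± 226 (SD, n = 2 each), which is 109% of control. On the log2 scale the change was 0.13 (SE 0.0304, 95% interval 0.067 to 0.19). Without sh-IRF1 replicate 2 it was 0.10, and GNAI2 was not called. Each fit that leaves out a library has a single library in a group and calls fewer genes over the whole table. A call lost in such a fit, here and below, therefore does not show that it rests on that library.

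Per length, in reads per kilobase of the canonical transcript scaled to the library's total (RPKM), GNAS stood at 305 and 327 in sh-NC and at 154 and 148 in sh-IRF1. GNAI2 stood at 228 and 229 in sh-NC and at 253 and 263 in sh-IRF1. The order of these alpha subunits by level thus turned over. The ratio of GNAS to GNAI2 was 1.34 and 1.42 in the sh-NC libraries and 0.609 and 0.564 in the sh-IRF1 libraries.

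ADCY7 (ENSG00000121281), on chr16:50246137-50318135, encodes a membrane adenylyl cyclase known for its expression in hematopoietic cells. It had 2181 and 2188 normalized counts in sh-NC and 1549 and 1562 in sh-IRF1. The replicates nearly coincided and the groups were well apart, at 71.2% of the control level, with a log2 fold change of -0.49 (SE 0.0524, 95% interval -0.60 to -0.38). Of its exonic bases 41.8% are shared with BRD7 on the other strand, so reads of the pair may not have been separated there. BRD7 itself had 1317 and 1202 normalized counts in sh-NC and 1251 and 1258 in sh-IRF1, with a log2 fold change of -0.0037 (SE 0.0636, adjusted p = 0.97 from limma).

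PRKACA (ENSG00000072062), on chr19:14091688-14118084, encodes the main catalytic subunit of PKA. It had 1847 and 1897 normalized counts in sh-NC and 2245 and 2294 in sh-IRF1. Both knockdown libraries were higher, at 121% of the control level, and the fitted log2 fold change was 0.28 (SE 0.0503, 95% interval 0.18 to 0.38).

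PRKACB (ENSG00000142875), on chr1:84078062-84238498, encodes the second catalytic subunit and was per length the lower of the pair in every library. It had 393 and 410 normalized counts in sh-NC and 541 and 533 in sh-IRF1, at 134% of the control level. Its fitted log2 fold change was 0.42 (SE 0.0997, 95% interval 0.22 to 0.62), an interval that overlaps that of PRKACA. The ratio of PRKACA to PRKACB per length was 7.82 and 7.7 in sh-NC and 6.9 and 7.15 in sh-IRF1.

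PRKAR1A (ENSG00000108946), on chr17:68511780-68551319, encodes the type I alpha regulatory subunit that holds the catalytic subunits inactive, and it carries the cAMP response element printed above. It had 3835 and 3857 normalized counts in sh-NC and 3195 and 3219 in sh-IRF1. All sh-IRF1 values were below all sh-NC values, with replicates close together, and 83.4% of the control level was left (log2 fold change -0.26, SE 0.041, 95% interval -0.34 to -0.18).

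PRKAR2A (ENSG00000114302), on chr3:48744597-48847874, encodes the type II alpha regulatory subunit, which anchoring proteins tether within the cell. It had 2515 and 2617 normalized counts in sh-NC and 2477 and 2297 in sh-IRF1. The groups did not overlap, but the nearest values of the groups were closer to each other than the replicates of either group. The log2 fold change was -0.11 (SE 0.0483, 95% interval -0.20 to -0.008), with an adjusted p of 0.0753 from limma. Without sh-IRF1 replicate 1 it was -0.16, with an adjusted p of 0.0411, which passes the threshold. Scaled to total reads instead, the groups overlapped, with 21.4 and 22.2 RPKM in sh-NC and 21.7 and 20.2 in sh-IRF1.

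CREB1 (ENSG00000118260), on chr2:207529737-207605988, encodes the transcription factor that PKA phosphorylates. It had 1422 and 1584 normalized counts in sh-NC and 1388 and 1496 in sh-IRF1. The groups overlapped, and the log2 fold change was -0.058 (SE 0.0612, 95% interval -0.18 to 0.065). PKA acts on CREB1 by phosphorylation, which RNA levels do not measure.

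PDE4D (ENSG00000113448), on chr5:58969038-60522120, encodes a cAMP-specific phosphodiesterase of the PDE4 family. It had 128 and 96.5 normalized counts in sh-NC and 82.6 and 92.8 in sh-IRF1. The control replicates were further apart than the nearest values of the groups. The log2 fold change was -0.34 (SE 0.216, 95% interval -0.78 to 0.091), with an adjusted p of 0.205 from limma. At this depth a change of that size could not be told from the replicate spread.

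PDE4B (ENSG00000184588), on chr1:65792514-66374579, encodes the family member known for its role in inflammatory cells. It had 0 and 2 reads in the sh-NC libraries and 2 and 8 in the sh-IRF1 libraries, and was not tested. With 2 reads in sh-NC and 10 in sh-IRF1, the ratio of reads per total was 4.85, with an exact 95% interval for counting error from 1.03 to 45.5. Over genes with more reads, replicates differed by more than counting error, and the interval leaves such spread out. Of the 10 sh-IRF1 reads 8 lay in replicate 2, so no change of PDE4B is read from the ratio.

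**Figure D2:**
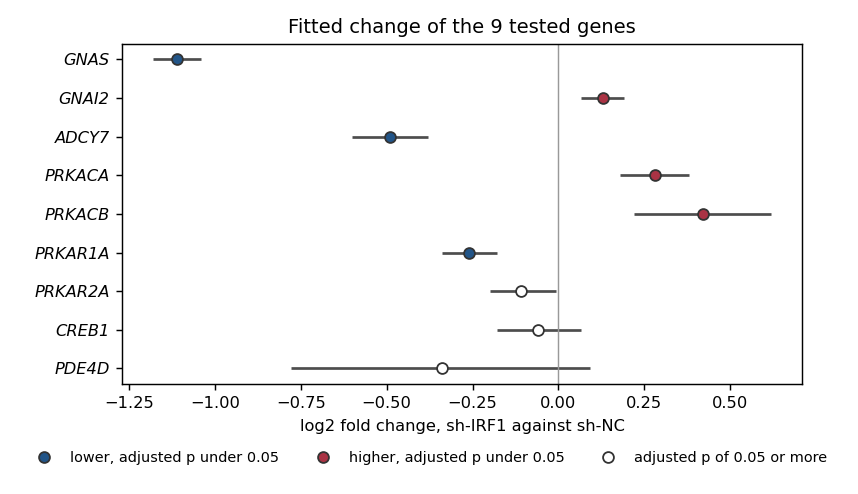
Log2 fold change, knockdown against control, for the 9 tested genes, with 95% intervals from limma as lines and filled points where the adjusted p was under 0.05. The interval of GNAS, from -1.18 to -1.04, lies apart from those of the other genes, and the intervals of CREB1 and PDE4D cross 0.

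The members were then set beside the rest of their families, with summed levels in RPKM. Among the adenylyl cyclases ADCY9 rose, with 2195 and 2203 normalized counts in sh-NC and 3639 and 3701 in sh-IRF1 (log2 fold change 0.74, SE 0.0442, adjusted p = 5.52e-19 from limma). ADCY3 was also higher, at 0.15 (adjusted p = 0.00961 from limma), but was not called without sh-NC replicate 1 or without sh-IRF1 replicate 1, at 0.10 each, and 24.4% of its exonic bases are shared. ADCY4 had a log2 fold change of -0.46 (adjusted p = 0.22). The summed level of the cyclases was 61.5 and 63.6 in sh-NC and 72.6 and 71.5 in sh-IRF1. ADCY7 made up 31.3% and 30.2% of that sum in sh-NC and 19.3% and 19.9% in sh-IRF1, so the sum was higher in sh-IRF1 while the share of ADCY7 was lower. ADCY6, a cyclase that calcium inhibits, was too low for the test, with 8 and 10 reads in sh-NC and 0 in each sh-IRF1 library.

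Among the PKA genes outside the chosen members, PRKAR1B, the type I beta regulatory subunit, rose from 359 and 352 to 572 and 525 normalized counts (log2 fold change 0.62, SE 0.103, adjusted p = 2e-06 from limma). PRKAR2B had a log2 fold change of -0.32 (adjusted p = 0.104) and PRKX, a related catalytic subunit, one of -0.0063 (adjusted p = 0.956). The summed level of the catalytic subunits PRKACA, PRKACB and PRKX was 51.1 and 52 in sh-NC and 62.5 and 64 in sh-IRF1. That of the 4 regulatory subunits was 82.1 and 83.1 in sh-NC and 79.9 and 77.9 in sh-IRF1. The ratio of regulatory to catalytic transcripts was therefore 1.61 and 1.6 in the control libraries and 1.28 and 1.22 in the knockdown libraries. PKIG, an inhibitor of the catalytic subunits, was lower at -0.77 (adjusted p = 0.00682 from limma), and was not called without sh-NC replicate 1 (-0.66) or without sh-IRF1 replicate 2 (-0.62). For PKIG 34.6% of the exonic bases are shared with another gene.

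Among the phosphodiesterases PDE4A, the most abundant PDE4 gene in these libraries, fell from 384 and 421 to 137 and 138 normalized counts (log2 fold change -1.54, SE 0.139, adjusted p = 5.49e-13 from limma). The summed level of the PDE4 genes was 5.2 and 5.42 in sh-NC and 2.19 and 2.37 in sh-IRF1, and PDE4A made up most of it in the control libraries, at a mean of 4.54 RPKM beside 0.761 for PDE4D. PDE8A, a high-affinity cAMP phosphodiesterase, was lower at -0.62 (adjusted p = 0.00191 from limma), and was not called without sh-IRF1 replicate 1 (-0.44). PDE3B, which cGMP inhibits, was higher at 0.21 (adjusted p = 1.42e-05 from limma). PDE3B and PDE7A stood at 35.4 and 27.1 RPKM in sh-NC and made up most of the family's sum, which was 78.2 and 78.8 in sh-NC and 78.7 and 81.5 in sh-IRF1. The summed levels thus differed less between the groups than those of the PDE4 genes alone.

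**Figure D3:**
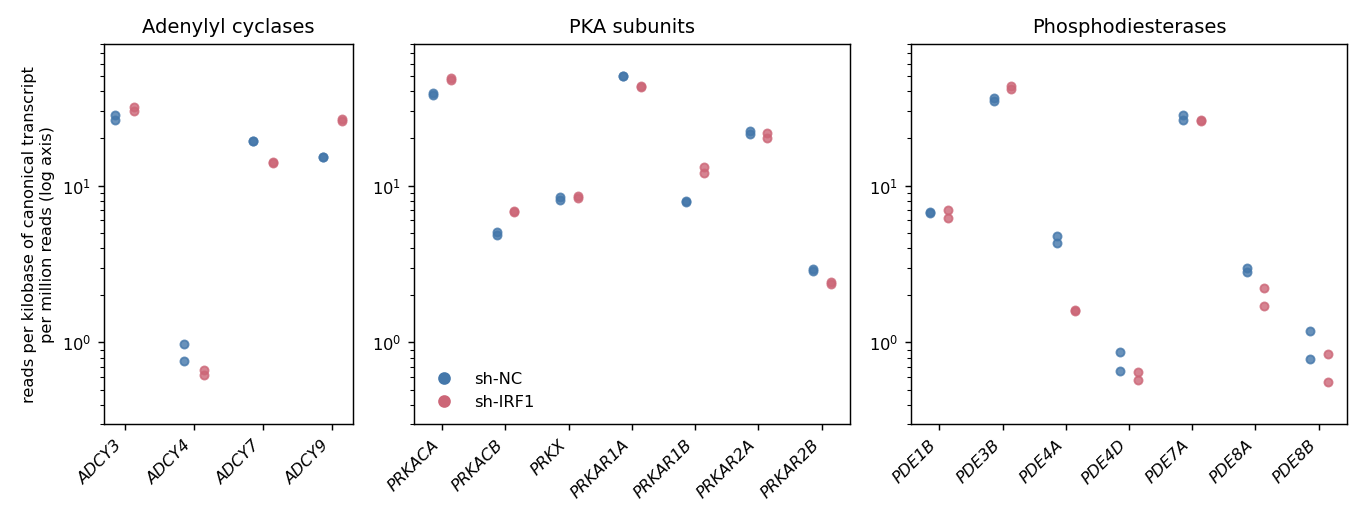
Level of the tested adenylyl cyclases, PKA subunits and phosphodiesterases in each library, in RPKM on a log axis, with sh-NC in blue and sh-IRF1 in red. ADCY7 and ADCY9 change order between the groups, PRKACA and PRKACB are higher and PRKAR1A is lower in sh-IRF1, and PDE4A drops from a mean of 4.54 to 1.6.

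A list of 147 other genes of the pathway in 12 roles was written from general knowledge, with earlier results of these data known. Its shares are therefore set beside those of all genes as a description only. Of these 124 were in the table and 100 had enough reads. At an adjusted p under 0.05 from limma, 21 were higher and 31 lower, 52% of the 100 beside 42.2% of all genes tested, and the median log2 fold change was -0.051 beside -0.0019. Beyond a log2 fold change of 0.5 as well, 12 were higher and 20 lower, beside 15.8% of all genes tested in either direction. The counts by role below stand beside 20.3% higher and 21.9% lower of all genes tested. The libraries of the groups did not overlap for 74 of the 100, beside 69.2% of all genes.

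The other alpha subunits of the stimulatory and inhibitory families gave 0 higher and 2 lower of 4 tested. GNAI3, an inhibitory subunit like GNAI2, was lower where GNAI2 was higher, with 1897 and 1880 normalized counts in sh-NC and 1588 and 1607 in sh-IRF1 (log2 fold change -0.24, adjusted p = 0.000242 from limma). GNAO1, mainly a neuronal subunit, was low throughout, at 18.5 and 15.4 in sh-NC and 5.97 and 0.937 in sh-IRF1 (log2 fold change -2.28, adjusted p = 0.0167), and was not called without sh-IRF1 replicate 2 (-1.36). GNAL, which also couples to adenylyl cyclase and is known from olfactory neurons, had 5.13 and 5.14 in sh-NC and 22.9 and 12.2 in sh-IRF1 (adjusted p = 0.0624).

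The beta and gamma subunits, which bind the alpha subunits at rest, gave 2 higher and 4 lower of 8 tested. GNG7 rose from 368 and 381 to 1184 and 1129 normalized counts (log2 fold change 1.62, SE 0.0844, adjusted p = 3.42e-21 from limma). GNB1, a widely expressed beta subunit, fell from 10937 and 11206 to 9357 and 9216 (-0.25). GNB4 was lower at -0.51, with 24.3% of its exonic bases shared, and GNG2 at -1.14. GNB2 was higher at 0.11 and was not called without sh-IRF1 replicate 1 (0.065). The group thus moved in both directions.

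Receptors that couple to the stimulatory G protein gave 4 higher and 2 lower of 10 tested. PTGER4, the EP4 receptor for prostaglandin E2, was per length the most abundant of those named (61.3 RPKM in sh-NC) and rose from 3712 and 3911 to 5599 and 5474 normalized counts (log2 fold change 0.54, SE 0.0384, adjusted p = 2.65e-16 from limma). HRH2, the H2 histamine receptor, was higher at 0.18. GPR3, which signals without a known ligand, was higher at 0.67, and was not called without sh-IRF1 replicate 2 (0.62, adjusted p = 0.0587). PTGIR, the prostacyclin receptor, fell from 238 and 267 to 103 and 100 (-1.30). The beta-1 adrenergic receptor ADRB1 was low in all libraries, with a log2 fold change of -1.86 that became -0.97 and was not called without sh-IRF1 replicate 2.

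Receptors that couple to inhibitory G proteins gave 2 higher and 3 lower of 11 tested. GPR183, an oxysterol receptor that guides immune cells, rose from 107 and 91.4 to 737 and 687 normalized counts (log2 fold change 2.84, SE 0.133, adjusted p = 7.65e-23 from limma). CNR2, the cannabinoid receptor of immune cells, went from 8.21 and 7.19 to 93.5 and 106 (3.53). The chemokine receptor CCR2 was lower, at -0.55. SUCNR1, the succinate receptor, was lower at -1.22 and was not called without sh-NC replicate 1 (-0.82).

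Anchoring proteins of PKA gave 2 higher and 2 lower of 10 tested. AKAP9, at the centrosome and Golgi, was higher at 0.53 and AKAP13 at 0.38, while AKAP1, at the mitochondrial surface, was lower at -0.41. AKAP8 was lower at -0.20 and was not called without sh-NC replicate 2 (-0.16). Of the genes around EPAC, the other cAMP sensor, 0 were higher and 2 lower of 6 tested. The small GTPase RAP1B fell from 2707 and 2625 to 1410 and 1360 normalized counts (log2 fold change -0.94, SE 0.052, adjusted p = 2.79e-20 from limma), and its inactivator RAP1GAP was lower at -0.46. RAP1A, its close relative, had a log2 fold change of -0.15 (adjusted p = 0.0518). RAPGEF3, which encodes EPAC1 itself, had between 8.21 and 21.6 normalized counts.

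The relatives and coactivators of CREB1 gave 2 higher and 2 lower of 9 tested. CRTC1, a coactivator held in the cytoplasm by SIK kinases, rose from 1019 and 1048 to 1613 and 1529 normalized counts (log2 fold change 0.60, adjusted p = 2.72e-11 from limma), and the acetyltransferase CREBBP was higher at 0.22. ATF1, which pairs with CREB1, fell from 808 and 805 to 507 and 563 (-0.59), and CRTC3 was lower at -0.44. Among 10 tested genes known as CREB targets, 2 were higher and 4 lower. EGR1 fell from 3080 and 3174 to 1355 and 1329 normalized counts (log2 fold change -1.22, SE 0.0505, adjusted p = 6.7e-25 from limma), and the clock gene PER1 was lower at -0.84. FOSB rose from 248 and 271 to 488 and 499 (0.93), whereas FOS had a log2 fold change of 0.06 (adjusted p = 0.335). NR4A2 was higher at 0.90, not called without sh-IRF1 replicate 2 (0.74), and JUNB was lower at -0.21, not called without sh-NC replicate 1 (-0.11), with 14.2% of its exonic bases shared. These genes respond to other pathways too, and they did not move in a single direction.

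Regulators of G proteins and receptors, with the cAMP exporters, gave 3 higher and 6 lower of 17 tested. RGS16, which speeds the shut-off of inhibitory alpha subunits, fell from 1265 and 1213 to 610 and 583 normalized counts (log2 fold change -1.05, SE 0.0744, adjusted p = 1.86e-16 from limma). GPSM1, which binds inhibitory alpha subunits, was lower at -1.17, and ARRB2, which uncouples and internalizes receptors, at -0.69. The receptor kinase GRK2 was higher at 0.24, from 12172 and 11811 to 14171 and 14112. RIC8B, a chaperone of the GNAS product, was higher at 0.87, from 171 and 173 to 326 and 303, with 12.2% of its exonic bases shared. GPSM3, at 0.15 (adjusted p = 0.043 from limma), was not called when any 1 library was left out, with values from 0.13 to 0.17. The exporter ABCC4 had a log2 fold change of 0.044 (adjusted p = 0.568).

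**Figure D4:**
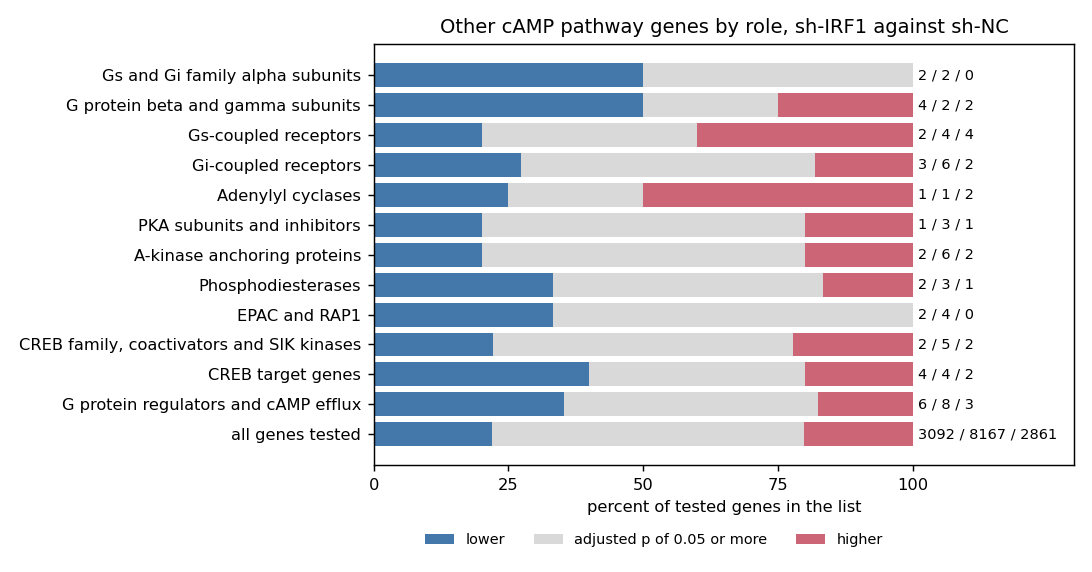
Share of the tested genes of each role that were lower, higher or not called in sh-IRF1, in percent, with the members left out and all tested genes in the last bar. Numbers at the right give the genes lower, not called and higher, and most roles hold genes of both directions.

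The pattern of GNAS over the 4 libraries was compared with 4226 genes with a mean of at least 1000 normalized counts, by the Euclidean distance between log2 values centred on each gene's mean. The 5 nearest were RB1CC1 (distance 0.0395), EI24 (0.0528), ASS1 (0.06), USP14 (0.0706) and PDCD4 (0.101). ASS1, an enzyme of arginine synthesis, had 8812 and 9257 normalized counts in sh-NC and 4471 and 4245 in sh-IRF1. All 5 kept between 44.4% and 48.2% of the control level, beside 46.4% for GNAS. With 4 libraries such a distance mostly reflects the difference between the groups.

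Of the genes within 250000 bases of GNAS, 7 were tested. Over all genes tested, 42.2% were called, with 21.9% lower. STX16, PRELID3B and CTSZ were lower, with log2 fold changes of -0.36 (adjusted p = 2.28e-05), -0.37 (adjusted p = 2.2e-06) and -0.23 (adjusted p = 0.000237 from limma). STX16, a syntaxin whose locus holds a control region for GNAS imprinting, had 1141 and 1211 normalized counts in sh-NC and 913 and 918 in sh-IRF1. NPEPL1, NELFCD, TUBB1 and ATP5F1E did not pass, at 0.41, 0.071, -0.16 and -0.077. The 95% interval of GNAS did not overlap that of any of the 7, of which that of TUBB1, from -0.95 to 0.63, came nearest.

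**Figure D5:**
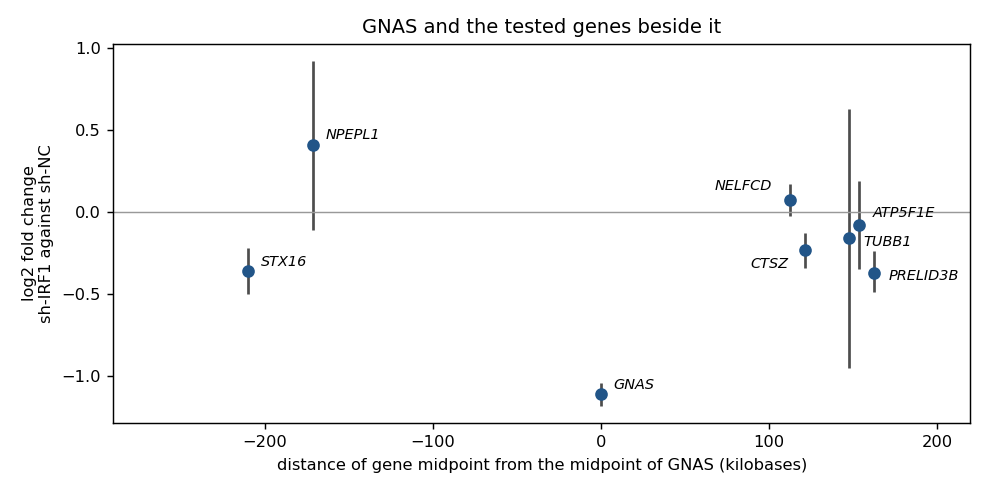
Log2 fold change, knockdown against control, for GNAS and the 7 tested genes within 250000 bases of it, with 95% intervals, against the distance of each gene's midpoint from that of GNAS in kilobases. GNAS lies at -1.11, and the neighbours lie between -0.37 and 0.41.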

How the data were processed

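RNA sequencing of 4 MV4-11 libraries was analysed, with 2 sh-NC and 2 sh-IRF1. Per the labels, libraries were made from total RNA with an Illumina TruSeq RNA kit. The submitters' processing notes name HISAT2 2.0.5 and hg38, and the study's methods name FPKM and DESeq2. How reads were counted, with which annotation and whether by strand, is not given in the sources used here. The deposited values are a normalized signal, for which the authors divided gene reads by a size factor of the library. The table has 0 further sample columns. Every value (100%) came out as a whole number of reads within 4.52e-05, so reads were recovered.

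Symbols matched 23456 of 23622 identifiers. Positions, transcripts and shared exonic bases came from GENCODE 44 on GRCh38. limma 3.58.1 (R 4.3.3, trend and robust) was fitted to log2(value + 1) for 14120 genes with at least 10 in at least 2 libraries, with Benjamini-Hochberg adjustment over all of them. With 2 libraries against 2 an exact permutation test reaches a two-sided p of 0.33 at best, and calls depend on a spread pooled over genes by limma. edgeR 4.0.16 and DESeq2 1.42.0 were run on the recovered reads as alternatives, beside other scalings, filters, pseudocounts, a replicate block and leaving out each library. The scripts were tested on simulated data. RPKM used the length of the Ensembl canonical transcript and the recovered reads of each library.

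The members and the gene lists were chosen with earlier results of these data known. Genes were named by rule: all members, IRF1, up to 3 called genes per role list and direction, by smallest p, any tested cyclase, PKA or phosphodiesterase gene, the 5 genes most like GNAS, and its neighbours. ADCY6, GNAL, RAP1A, RAPGEF3, FOS, ABCC4 and BRD7 were named after their values were seen. A few listed genes and markers are not reported here.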

Additional observations from a re-analysis of the deposited data

How the results depend on the processing

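With a minimum log2 fold change of 0.5, 1168 genes were higher and 1067 lower over the whole table, 0 members higher and 1 lower, and 12 other pathway genes higher and 20 lower. On the recovered reads edgeR called 2910 genes higher and 3038 lower and DESeq2 2312 and 2605, with 3 members in each direction in both. Without sh-IRF1 replicate 1 there were 4 members lower, and without sh-IRF1 replicate 2 there were 2 higher. Among the members 1 direction turned, that of CREB1, at 0.019 without sh-NC replicate 2, and the cause was not tested. Over the alternatives the log2 fold change ran from -1.16 to -1.05 for GNAS, -0.50 to -0.45 for ADCY7, -0.27 to -0.22 for PRKAR1A, 0.10 to 0.17 for GNAI2, 0.26 to 0.32 for PRKACA, 0.39 to 0.46 for PRKACB and -0.55 to -0.14 for PDE4D. Of 764 gene values under the alternatives, 739 kept their direction and side of the threshold, 23 lost their call, 1 gained one and 1 turned. The 764 belong to the tested members and to called pathway genes named for a small p in this same contrast. Much of the agreement was therefore fixed in advance. DESeq2 did not call GNAO1 (adjusted p = 0.0555), ADRB1 (0.106), NR4A2 (0.0506) or GPSM3 (0.0966). Total count scaling moved the median of all genes to 0.042.

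The labels number the libraries 1 and 2 in both groups. Deviations of same-numbered libraries from their group means had a correlation of -0.015, so no shared deviation was seen. With 2 libraries per group both numbers give the same value. It cannot settle whether same-numbered libraries were prepared as pairs. With a replicate block 2903 genes were higher and 3147 lower, with 3 members in each direction and 22 other pathway genes higher and 33 lower. Genes with few reads, such as PDE4B, could not be judged at this depth.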
